A study of Mus musculus with 6 samples.

Results

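The kinetochore is the protein machine, built on the centromere of each chromosome, that holds the chromosome to the microtubules of the mitotic spindle. Its genes and those of the spindle checkpoint were followed here as a list of 36 genes, found by symbol among 45527 named genes of the count table, and all 36 were expressed highly enough to be tested. By role the list has 14 inner kinetochore genes, 15 outer kinetochore genes and 7 checkpoint genes. RNA was sequenced from YFP-positive muscle stem cells (satellite cells), sorted 24 h after cardiotoxin (30 µl), a venom toxin that kills muscle fibres, had been injected into the lower hindlimb of mice. The 3 iKO libraries are from mice labelled Pax7creER:Paxbp1flox/flox:R26R-YFP, in which both Paxbp1 alleles can be deleted by Cre. The 3 control libraries are from mice labelled Pax7creER:Paxbp1flox/+:R26R-YFP, which carry the same Cre and reporter and can lose only 1 of their Paxbp1 alleles. In both groups Cre is driven from Pax7, so deletion is limited to cells that express that gene. The labels state neither the age of the mice nor how Cre was activated, and tie no library to a named animal.

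The inner kinetochore rests on nucleosomes that carry the histone H3 variant CENP-A. The constitutive centromere-associated network (CCAN) reads these nucleosomes and stays on the centromere through the cell cycle. In mitosis it recruits the outer kinetochore, in which the KNL1, MIS12 and NDC80 complexes (together the KMN network) bind microtubules and the SKA complex strengthens the hold. Kinetochores without microtubules activate the spindle checkpoint, whose kinases and Mad and Bub proteins hold back the anaphase-promoting complex until every chromosome is attached. Many of these genes are transcribed mainly from late S phase to mitosis, so their messenger RNAs are scarce in cells that are not dividing.

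Totals were 23327359 to 28050748 counts in the iKO libraries and 23508654 to 27309423 in the controls. Paxbp1, the targeted gene, stood at 96.2, 107.8 and 126.7 CPM (counts scaled to a common library size) in iKO 1 to 3, against 70.8, 74.1 and 61.0 CPM in controls 1 to 3. It was thus higher in the libraries labelled as knockouts (log2 fold change 0.68 ± 0.13 SE, adjusted p = 0.00954), counted over the whole gene. This goes against the label, and no source used here names the floxed exons, so the groups are called by their labels ("iKO-labelled") and every direction below is drawn from them. Whether labels or columns were exchanged cannot be told from counts per gene, and an exchange would turn every direction given here. Of the exonic bases of Paxbp1, 20.7% (1142 of 5508) also lie in exons of 4930404I05Rik on the opposite strand. All 9 satellite cell markers, Pax7 and Myod1 among them, had counts in every library, with sums of 12096 to 12677 CPM in iKO-labelled libraries and 9604 to 10117 CPM in controls. The sum is mostly Sdc4 (6087 CPM on average in iKO-labelled libraries), and the markers moved both ways. Pax7 (2.13 ± 0.17), Chodl (2.51 ± 0.15), Sdc4, Vcam1 and Cdh15 rose, Myf5 (-0.62 ± 0.08), Itga7 and Des fell, and Myod1 did not pass the test (-0.27 ± 0.08, adjusted p = 0.0511). Of 26 tested markers of endothelial cells, leukocytes, fibro-adipogenic cells, pericytes, Schwann cells and muscle fibres, the only one past the test was Acta1, a muscle fibre actin, which was lower.

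Kinetochore and checkpoint genes were lower in the iKO-labelled libraries. Of the 36 genes, 23 fell (63.9%) and none rose, at an adjusted p under 0.05 in edgeR's quasi-likelihood test over 16252 genes; among all genes tested, 12.3% fell and 8.15% rose, 20.4% in all. None was higher even at an unadjusted p under 0.05, nor called higher by DESeq2 or limma-voom. Zwint was called higher in 2 of 17 alternative fits, given below. The median log2 fold change (iKO-labelled over control, here and below) was -2.10 over the 36 genes and 0.02 over all genes tested. The iKO-labelled and control libraries did not overlap for 27 of the 36 genes, always with the iKO-labelled libraries below, where 39.8% of all tested genes had no overlap. The count of falls was 15 without control 2 and 15 without control 3. In bulk RNA, fewer dividing cells and less of these RNAs per cell cannot be told apart. The proliferation marker Mki67 stood at 1.75, 1.02 and 1.18 CPM in the iKO-labelled libraries, against 37.2, 44.7 and 32.6 CPM in the controls (-4.85 ± 0.27).

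By role, the outer kinetochore had the most falls. Of the 15 outer kinetochore genes, 12 fell (80.0%), with a median log2 fold change of -2.83. Of the 14 inner kinetochore genes, 7 fell, with a median of -1.88; without control 2 or control 3 the count was 4. Of the 7 checkpoint genes, 4 fell (57.1%), with a median of -1.69. The outer count was 8 and the checkpoint count 3 without control 2, and likewise without control 3. The order of the medians depended on the scale. With limma on log2(FPKM + 1) of genes with a mean FPKM of at least 1, they were -1.38 (11 inner), -1.29 (11 outer) and -1.18 (6 checkpoint genes). On log2(FPKM + 0.1) the same genes gave -2.04, -2.23 and -1.48. Each role spanned a wide range, with log2 fold changes from -3.36 to 0.12 in the inner, from -7.78 to 0.20 in the outer and from -8.23 to -0.27 in the checkpoint group. No test between the roles was made, since the genes of a role are not replicates.

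**Figure D1:**
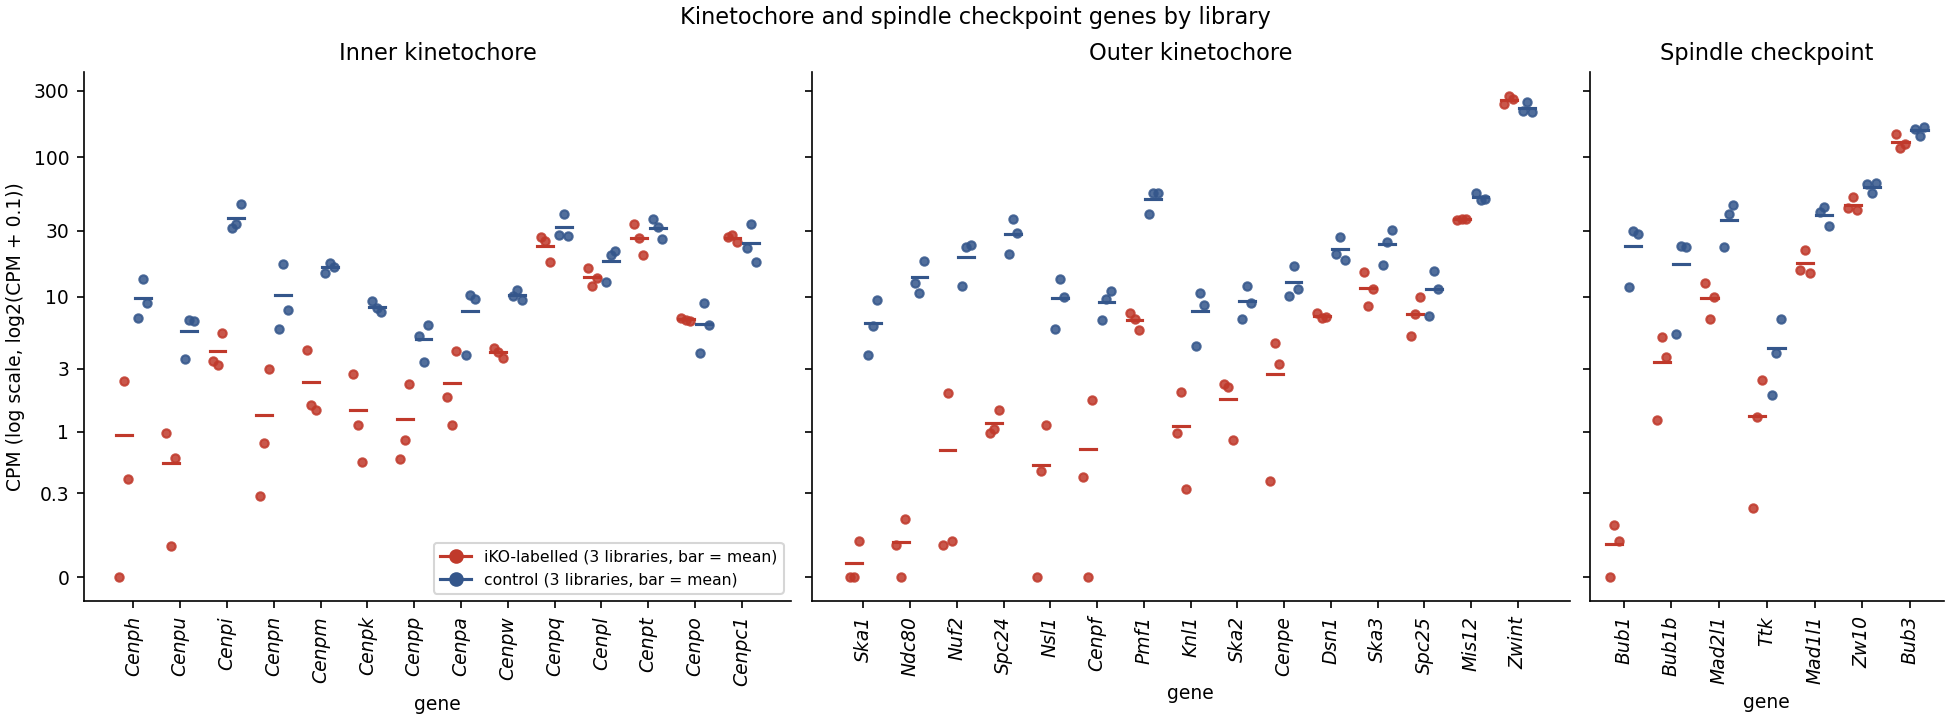
CPM of each gene in the 3 iKO-labelled (red, left) and 3 control (blue, right) libraries, on a log axis, log2(CPM + 0.1), with bars for the group means and genes of each role in the order of their fold change. Bub1, Ndc80 and Ska1 lay at 0 to 0.162 CPM in the iKO-labelled libraries, while Zwint and Bub3 were above 100 CPM in every library.

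**Figure D2:**
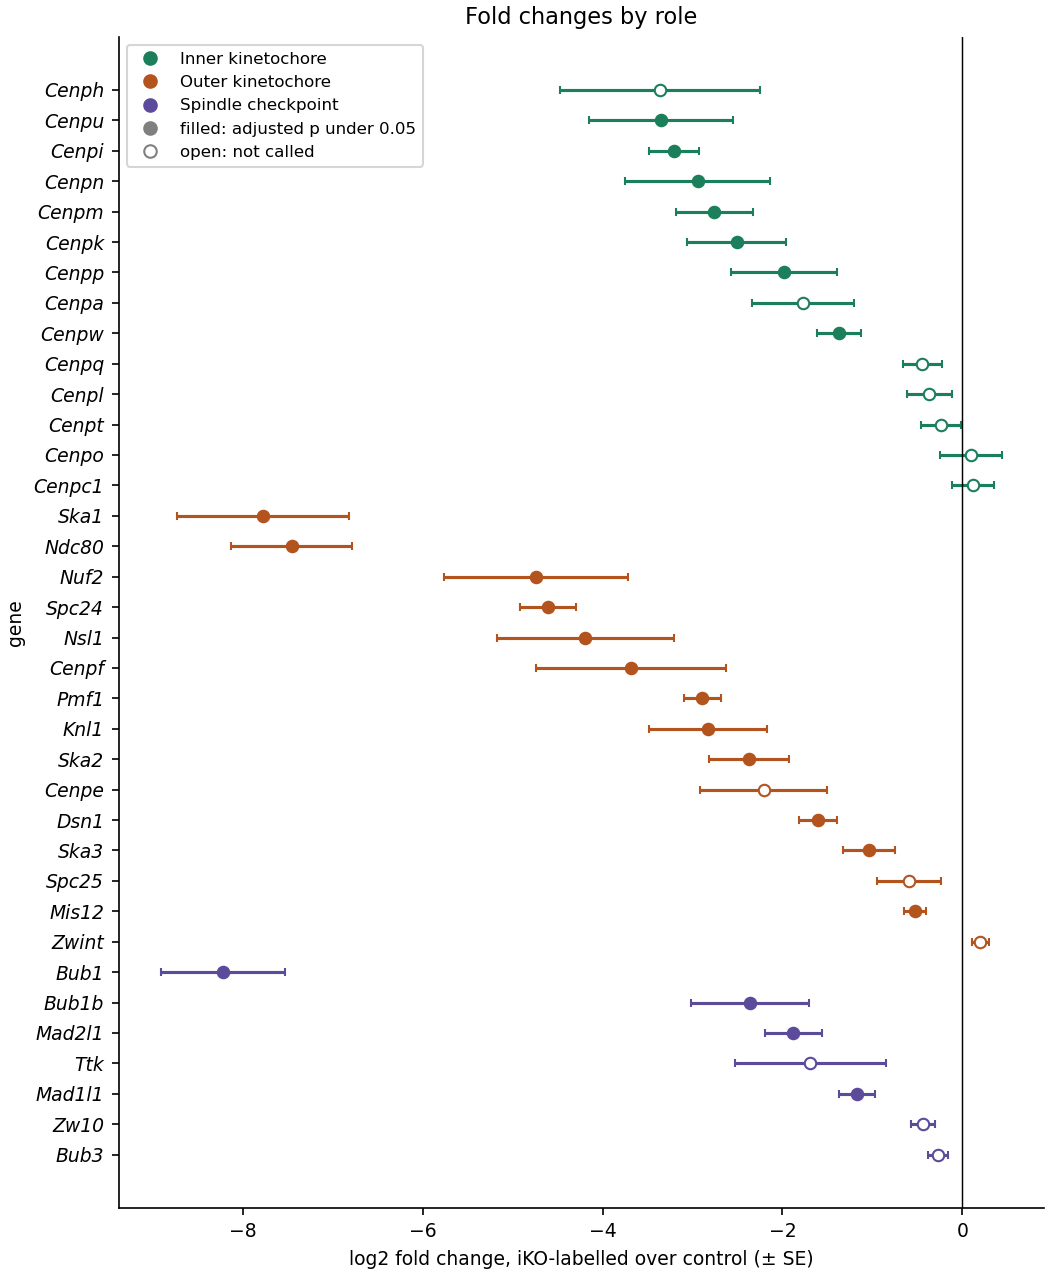
Log2 fold change (iKO-labelled over control) with its standard error for the 36 genes, by role; filled points passed the test at an adjusted p under 0.05. The 23 filled points all lie left of 0, and the 3 points right of 0 (Cenpo, Cenpc1 and Zwint) are open.

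In the outer kinetochore, the NDC80 complex forms the main microtubule contact, with Ndc80 and Nuf2 at the microtubule end of the rod and Spc24 and Spc25 at the kinetochore end. Ndc80 (chromosome 17, 71496100 to 71526857, minus strand, GRCm38) had 2, 0 and 4 counts in iKO 1 to 3, against 282, 278 and 473 in controls 1 to 3. That is 0.56% of its control CPM, from only 6 summed counts (-7.46 ± 0.67, adjusted p = 0.000387). Spc24 (chromosome 9, 21755442 to 21760303) stood at 0.981, 1.06 and 1.46 CPM in the iKO-labelled libraries, against 20.3, 36.1 and 28.9 CPM in the controls (-4.61 ± 0.31, adjusted p = 0.000132), the smallest adjusted p of the 36 genes. Nuf2 had 2, 58 and 2 counts in iKO 1 to 3, against 266, 594 and 616 in the controls (-4.74 ± 1.02, adjusted p = 0.0142), and its log2 fold change was -7.93 without iKO 2, the library that holds nearly all of its remaining counts. Spc25 did not pass the test, at 5.22, 7.47 and 9.89 CPM in the iKO-labelled libraries and 7.24, 15.4 and 11.3 CPM in the controls (-0.59 ± 0.35, adjusted p = 0.30). Its groups overlapped, unlike those of its 3 partners.

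Levels of different subunits can be compared per length, in the authors' deposited FPKM. Spc25 was at 1.62, 2.31 and 3.06 FPKM in the iKO-labelled libraries and 2.19, 4.74 and 3.50 FPKM in the controls, while Spc24 was at 0.719, 0.773 and 1.07 FPKM and 14.5, 26.2 and 21.0 FPKM. Spc25 therefore made up 69.6% ± 2.64 of the summed FPKM of the 4 subunits in the iKO-labelled libraries and 10.3% ± 1.58 in the controls (SD, n = 3 each). These shares were computed after the values were seen and are given without a test.

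All 4 genes of the MIS12 complex, the platform that joins the CCAN to NDC80 and KNL1, fell, but by very different amounts. Pmf1 (chromosome 3, 88394143 to 88410331) stood at 7.64, 6.92 and 5.72 CPM in the iKO-labelled libraries, against 39.6, 55.7 and 55.4 CPM in the controls (-2.89 ± 0.20, adjusted p = 0.000147). Dsn1, which anchors the complex to the inner kinetochore, fell to 7.25 ± 0.370 CPM, against 22.0 ± 4.52 CPM in the controls (-1.60 ± 0.21, adjusted p = 0.00187). Nsl1 had 0, 14 and 28 counts in iKO 1 to 3, against 130, 349 and 260 in the controls (-4.19 ± 0.99, adjusted p = 0.0203). Mis12 itself fell least, at 35.4, 36.2 and 36.4 CPM in the iKO-labelled libraries, against 56.0, 49.5 and 50.2 CPM in the controls (-0.53 ± 0.12, adjusted p = 0.0169). Mis12 made up 75.3% ± 1.31 of the summed FPKM of the 4 subunits in the iKO-labelled libraries and 45.7% ± 6.13 in the controls. Leaving out control 1, iKO 2 or iKO 3 ended the call of Mis12 (adjusted p = 0.0525 to 0.0596), as did library totals (0.0501), and that of Nsl1 without control 2, control 3 or iKO 2 (up to 0.0788). Over 17 alternative fits (other scaling, filters or models, or libraries left out), the call of Mis12 was lost in 5 (up to 0.0611). Of the exonic bases of Mis12, 7.69% also lie in exons of Derl2 on the opposite strand, and Derl2 itself fell (-0.77, adjusted p = 0.00915); the part of this in the fall of Mis12 was not tested.

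The KNL1 complex was split. Knl1, the scaffold on which the Bub proteins dock, had 28, 59 and 8 counts in iKO 1 to 3, against 99, 277 and 227 in the controls (-2.83 ± 0.65, adjusted p = 0.0189). The call of Knl1 ended in 4 of 14 alternative fits (up to 0.116), among them those without control 2, control 3 or iKO 1 (up to 0.0681). Its partner Zwint was at 242, 274 and 261 CPM in the iKO-labelled libraries and 214, 249.5 and 213 CPM in the controls (0.20 ± 0.09, adjusted p = 0.171). Zwint was the second of the 36 genes by FPKM in both groups. It was called higher when libraries were scaled by their totals (0.33, adjusted p = 0.0379) and when genes under 5 CPM in more than 3 libraries were dropped (0.27, adjusted p = 0.0483).

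The 3 SKA genes, whose products form a coupler that tracks microtubule ends, all fell. Ska1 (chromosome 18, 74195299 to 74207818) had 0, 0 and 2 counts in iKO 1 to 3, against 85, 160 and 246 in the controls (-7.78 ± 0.95, adjusted p = 0.00125). From its 2 and 491 summed counts, the iKO-labelled level was 0.367% of the control level, with an exact 95% interval of 0.0443% to 1.33% that covers counting error only. Ska2 stood at 2.31, 2.18 and 0.852 CPM in the iKO-labelled libraries, against 6.89, 11.9 and 9.08 CPM in the controls (-2.38 ± 0.45, adjusted p = 0.00833). Ska3 kept 48.9% of its control CPM, at 15.1, 8.52 and 11.4 CPM, against 16.9, 24.6 and 30.2 CPM in the controls (-1.03 ± 0.29, adjusted p = 0.039). Its call ended in 7 of 17 alternative fits, among them those without control 2, control 3, iKO 2 or iKO 3 (up to 0.126) and library totals (0.0602).

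Of the fibrous corona, the outermost layer, Cenpf passed the test and Cenpe did not in edgeR's fit, while DESeq2 gave the reverse. Cenpf, a large coiled-coil protein, was the lowest of the 36 genes per length in the controls (0.581 FPKM). It had 12, 0 and 43 counts in iKO 1 to 3, against 153, 251 and 287 in the controls (-3.69 ± 1.05, adjusted p = 0.0427). Its call ended in 7 of 15 alternative fits, among them those without any single control or iKO 1 (up to 0.124), DESeq2 (0.0593) and library totals (0.0503). Cenpe, a kinesin that carries chromosomes towards the spindle equator, had 11, 136 and 80 counts in iKO 1 to 3, against 228, 430 and 297 in the controls (-2.21 ± 0.71, adjusted p = 0.0627). Its groups did not overlap, and it was called lower in 6 of 15 alternative fits, among them DESeq2 (adjusted p = 0.00276) and that without iKO 1 (0.0229).

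**Figure D3:**
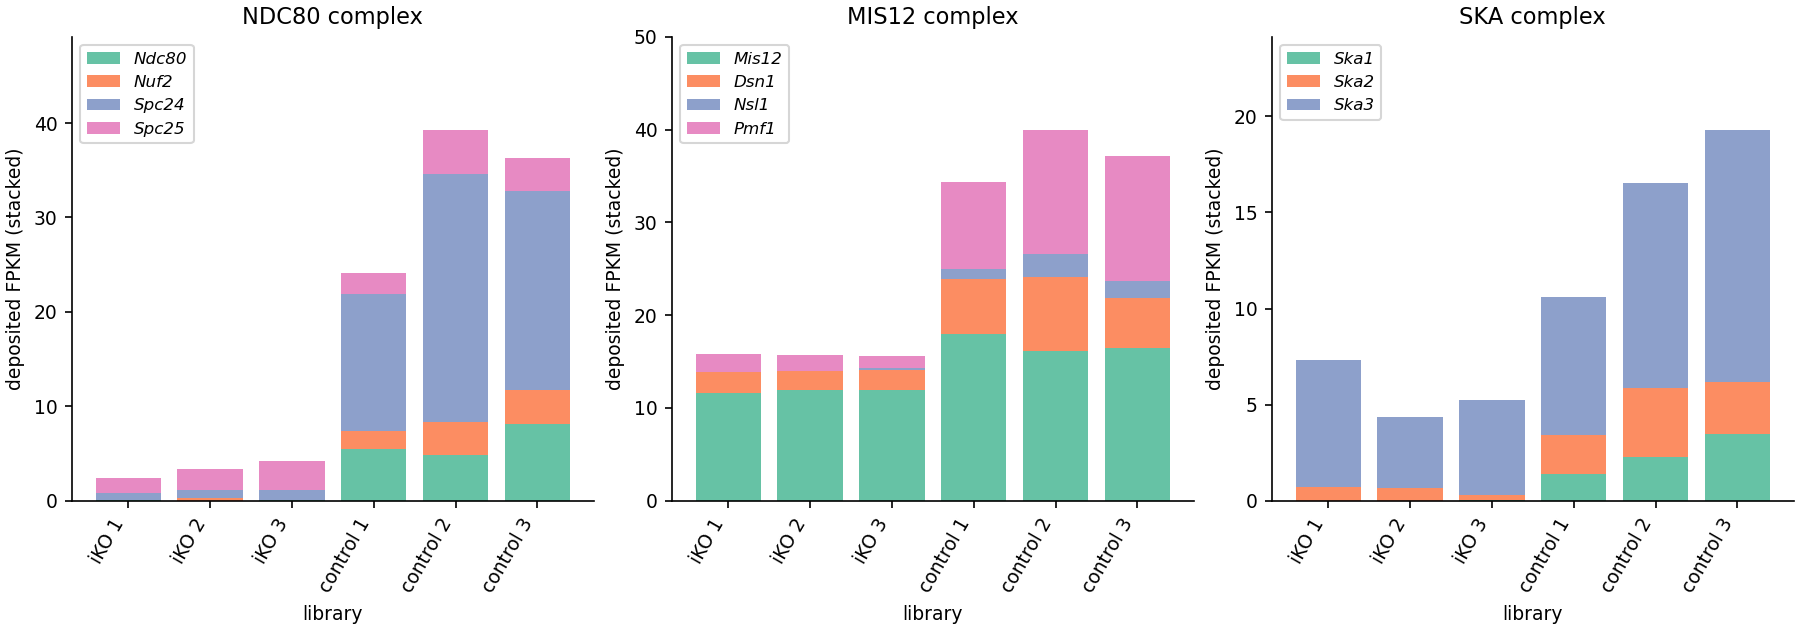
Deposited FPKM of the subunits of the NDC80, MIS12 and SKA complexes, stacked, in each iKO-labelled (left) and control (right) library. In the iKO-labelled libraries the NDC80 bars are mostly Spc25, the MIS12 bars mostly Mis12 and the SKA bars mostly Ska3. Ska3 is the larger part of the SKA bars in both groups (84.97% to 94.5% in the iKO-labelled libraries, 64.7% to 67.9% in the controls). In the controls Spc24 is the main NDC80 part, and Mis12 and Pmf1 share the MIS12 bars.

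In the inner kinetochore, Cenpa, which encodes the CENP-A histone, did not pass the test. It stood at 1.86, 1.12 and 4.01 CPM in the iKO-labelled libraries and 3.80, 10.4 and 9.66 CPM in the controls (-1.77 ± 0.57, adjusted p = 0.0638). The groups overlapped because iKO 3 lay above control 1. Cenpa was called lower in 4 of 14 alternative fits: by DESeq2 (adjusted p = 0.00899), without a count filter (0.0101), without control 1 (0.04) and without iKO 3 (0.0416). Cenpc1, the CCAN hub that touches both the CENP-A nucleosome and the MIS12 complex, was at 26.8, 28.0 and 24.9 CPM in the iKO-labelled libraries and 22.4, 33.2 and 17.8 CPM in the controls (0.12 ± 0.23, adjusted p = 0.776), and its sign turned without control 3 (-0.06).

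The other CCAN genes are described by the subcomplex of their products, and each subcomplex held genes that fell and genes that did not pass the test. In the CENP-H/I/K/M group, Cenpi (X chromosome, 134308084 to 134362639) stood at 3.43, 3.17 and 5.43 CPM in the iKO-labelled libraries, against 31.1, 33.5 and 46.5 CPM in the controls (-3.21 ± 0.28, adjusted p = 0.000326). Cenpm stood at 4.14, 1.60 and 1.46 CPM in the iKO-labelled libraries, against 14.8, 17.6 and 16.4 CPM in the controls (-2.76 ± 0.43, adjusted p = 0.00353). Cenpk stood at 2.73, 1.12 and 0.568 CPM, against 9.30, 8.31 and 7.74 CPM in the controls (-2.51 ± 0.55, adjusted p = 0.0153), a call that ended without iKO 2 (0.0643). Cenph had 0, 71 and 10 counts in iKO 1 to 3, against 157, 348 and 234 in the controls. Its groups did not overlap but its iKO-labelled libraries scattered widely (-3.36 ± 1.11, adjusted p = 0.0693). It was called lower in 8 of 17 alternative fits, among them that without iKO 2 (-5.62, adjusted p = 0.02), but not by DESeq2 (adjusted p = 0.123).

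In the CENP-T/W pair, which together with CENP-S and CENP-X has a histone-like fold, Cenpw fell and Cenpt did not pass the test. Cenpw stood at 4.24, 3.99 and 3.61 CPM in the iKO-labelled libraries, against 10.1, 11.1 and 9.50 CPM in the controls (-1.37 ± 0.24, adjusted p = 0.00646), with little spread in either group. Cenpt, which recruits NDC80 directly, was at 33.6, 26.5 and 19.9 CPM in the iKO-labelled libraries and 36.3, 31.7 and 26.1 CPM in the controls (-0.23 ± 0.22, adjusted p = 0.526). In the CENP-L/N pair, Cenpn, which binds the CENP-A nucleosome, fell (-2.94 ± 0.81, adjusted p = 0.037), with 8, 24 and 73 counts in iKO 1 to 3, against 130, 444 and 209 in the controls. The call of Cenpn ended in 5 of 17 alternative fits, among them those without control 2, control 3, iKO 1 or iKO 2 (up to 0.126). Cenpl was at 16.3, 11.9 and 13.8 CPM in the iKO-labelled libraries and 12.7, 19.9 and 21.4 CPM in the controls (-0.36 ± 0.25, adjusted p = 0.363).

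In the CENP-O/P/Q/U group, Cenpu (-3.35 ± 0.80, adjusted p = 0.0217) and Cenpp (-1.99 ± 0.59, adjusted p = 0.0487) fell. Cenpu, a docking site of the kinase Plk1, had 28, 2 and 15 counts in iKO 1 to 3, against 79, 175 and 174 in the controls. Its call ended in 5 of 14 alternative fits, among them those without control 2, control 3 or iKO 3 (up to 0.0764). Cenpp had 17, 25 and 57 counts, against 117, 87 and 164 in the controls, and its call ended in 10 of 16 alternative fits. Among them were those that left out any library but iKO 3 (up to 0.148), and RLE factors, upper-quartile factors or library totals (0.0509 to 0.0645). Cenpq was at 26.8, 25.3 and 17.8 CPM in the iKO-labelled libraries and 27.9, 39.7 and 27.5 CPM in the controls (-0.44 ± 0.22, adjusted p = 0.207), without overlap. Cenpo was at 7.08, 6.82 and 6.69 CPM in the iKO-labelled libraries and 3.89, 9.08 and 6.25 CPM in the controls (0.10 ± 0.34, adjusted p = 0.88), and its sign turned without control 1 (-0.16). In the annotation 19.0% of the exonic bases of Cenpo (1380 of 7263) also lie in exons of Adcy3 on the opposite strand. The same held for 26.7% of those of Cenpu (with Primpol) and 12.3% of those of Cenpp (with Ippk). Ippk had means of 1011 counts in the iKO-labelled libraries and 879 in the controls, and Primpol of 86.3 and 72.3. Smart-Seq2 cDNA does not mark strand, so reads from such shared bases cannot be told apart.

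Among the checkpoint genes, Bub1 was nearly without counts in the iKO-labelled libraries. This kinase marks centromeric histone H2A and is loaded onto Knl1. Bub1 (chromosome 2, 127801122 to 127831865, minus strand) had 0, 4 and 2 counts in iKO 1 to 3, against 265, 764 and 735 in the controls (-8.23 ± 0.69, adjusted p = 0.000262). The order of Bub1, Ska1 and Ndc80 by fold change is not fixed at such counts: on the log2(FPKM + 0.1) scale Ndc80 (-5.53) was below Bub1 (-5.41). Its relative Bub1b, the BubR1 subunit of the mitotic checkpoint complex, stood at 1.23, 5.15 and 3.65 CPM in the iKO-labelled libraries, against 5.37, 23.1 and 22.9 CPM in the controls (-2.36 ± 0.66, adjusted p = 0.039). Its highest iKO-labelled library came close to control 1, and its call ended in 7 of 17 alternative fits (up to 0.169). Among them were those without control 2, control 3 or any single iKO library (up to 0.116) and limma-voom (0.0714).

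Mad2l1, which encodes the Mad2 protein that captures Cdc20, stood at 12.5, 6.89 and 9.94 CPM in the iKO-labelled libraries, against 22.8, 39.1 and 46.0 CPM in the controls (-1.88 ± 0.32, adjusted p = 0.00519). Mad1l1, which encodes the Mad1 protein that holds Mad2 at the kinetochore, stood at 15.7, 21.6 and 14.9 CPM in the iKO-labelled libraries, against 40.7, 44.1 and 32.4 CPM in the controls (-1.17 ± 0.20, adjusted p = 0.00562). Neither gene's groups overlapped, and both calls held with any single library left out.

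Bub3, Zw10 and Ttk did not pass the test. Bub3, the adaptor that brings Bub1 and BubR1 to Knl1, had the highest FPKM of the 36 genes in both groups. It was at 148, 117 and 125 CPM in the iKO-labelled libraries and 159.5, 143 and 166 CPM in the controls (-0.27 ± 0.11, adjusted p = 0.142), with overlap. Zw10, which recruits dynein to kinetochores and also acts in membrane traffic between the endoplasmic reticulum and the Golgi, was at 43.3, 52.1 and 42.3 CPM in the iKO-labelled libraries and 64.4, 55.8 and 65.7 CPM in the controls (-0.43 ± 0.13, adjusted p = 0.056). Its groups did not overlap, and it was called lower in 4 of 17 alternative fits, DESeq2 among them (adjusted p = 0.022). Ttk, the Mps1 kinase that starts the checkpoint signal, had 6, 38 and 61 counts in iKO 1 to 3 and 43, 101 and 182 in the controls (-1.69 ± 0.83, adjusted p = 0.209), with iKO 3 above control 1.

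Together Zwint and Bub3 took 56.2%, 55.8% and 58.2% of the summed FPKM of the 36 genes in iKO 1 to 3, against 38.3%, 32.3% and 34.3% in controls 1 to 3. Without this pair, the other 34 genes summed to 278, 279 and 257 CPM in the iKO-labelled libraries, against 564, 762 and 717 CPM in the controls. Across the 36 genes the log2 fold change was weakly related to the control FPKM (Spearman's rho 0.31) and hardly to exonic length (0.02). These are descriptions over genes of the same libraries.

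Some genes varied widely between the iKO-labelled libraries, although the median SD of log2 CPM, with a small offset added to CPM, was 0.39 over the 36 genes in these and 0.40 in the controls. This offset lowers the SD of genes near 0 counts, such as Bub1 (0.18 in the iKO-labelled libraries) and Ska1 (0.13). The highest library exceeded the lowest by more than 3-fold, or the lowest was at 0, for 16 genes in the iKO-labelled libraries and for 2 in the controls. Of the 36 genes, 4 had no count in iKO 1 (Cenph, Nsl1, Bub1 and Ska1), 3 had none in iKO 2 (Cenpf, Ndc80 and Ska1) and none was missing from iKO 3 or a control. A count of 0 allows up to 0.105 CPM in iKO 1 and 0.102 CPM in iKO 2 (3 counts), for counting error only. The library that held most of what was left differed by gene, with Cenph, Nuf2, Cenpe and Bub1b highest in iKO 2, Cenpn, Cenpp, Ttk and Cenpf in iKO 3 and Cenpk, Cenpm and Cenpu in iKO 1.

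Among the controls, control 1 had the lowest CPM for 23 of the 36 genes and control 2 the highest for 21. Control 1 also had the highest summed CPM of endothelial (132, against 68.8 and 44.4 in controls 2 and 3) and pericyte markers (116, against 57.1 and 26.2). The same held for fibro-adipogenic (575, against 493 and 407), Schwann (28.7, against 13.6 and 6.13) and muscle fibre markers (72.6, against 54.7 and 33.0). Satellite cell markers were also highest there (10117, against 10019 and 9604). Macrophage and leukocyte markers went the other way, with control 1 lowest (108, against 119 and 177). The part of these differences in the low values of control 1 was not tested. Endothelial markers summed to 71.5, 86.0 and 87.2 CPM in iKO 1 to 3. Without control 1, 21 of the 36 genes fell and the median was -2.23.

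Of 18 other genes of the kinetochore pathway, 13 were lower (72.2%) and none was higher; their median log2 fold change was -2.36. None was higher at an unadjusted p under 0.05 in edgeR's test. The smallest adjusted p belonged to Sgo2a, a shugoshin that protects centromeric cohesion (-2.52 ± 0.25, adjusted p = 0.000514), the histone-fold CCAN gene Cenps (-1.95 ± 0.24, adjusted p = 0.00117), Trip13, the ATPase that remodels Mad2 (-2.86 ± 0.36, adjusted p = 0.00137), and the other shugoshin Sgo1 (-2.68 ± 0.34, adjusted p = 0.00138). Cdc20, the checkpoint's target and activator of the anaphase-promoting complex, fell as well (-2.39 ± 0.35), as did Kntc1 (-3.74 ± 0.68) and Zwilch (-2.33 ± 0.44), which with Zw10 form the RZZ complex. These 3 were singled out after their values were seen.

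Of the genes that load new CENP-A, Mis18a fell (-2.06 ± 0.31), while Oip5, which encodes its partner Mis18-beta, did not pass the test (-2.94 ± 0.94, adjusted p = 0.0633). Hjurp, the chaperone of CENP-A, was at 98.3, 125 and 132 CPM in the iKO-labelled libraries and 62.2, 106 and 96.6 CPM in the controls (0.43 ± 0.20, adjusted p = 0.193). The others not past the test were Cenpb, which binds centromeric satellite DNA (-0.55 ± 0.21, adjusted p = 0.11), the dynein adaptor Spdl1 (-1.03 ± 0.44, adjusted p = 0.148) and Mad2l1bp, which encodes the Mad2 inhibitor p31comet (0.30 ± 0.17, adjusted p = 0.253).

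Promoters were examined because many of these genes moved together. The cell cycle homology region (CHR) is a short element near the start of many G2 and mitosis genes, bound by the MuvB core of the DREAM and MYB-MuvB complexes, and often lies beside CCAAT boxes. RefSeq (GRCm38.p6) gave promoters for 33 of the 36 genes, from 250 bases before to 50 bases after each start. Spc24, Nsl1 and Ska1, which all fell, had none and were not searched. The letters TTTGAA or TTTAAA on either strand occurred within 250 bases upstream in 11 of the 33 genes (33.3%) and in 28.1% of 27025 genes with a promoter. Within 50 bases on each side of the start, a window chosen after the positions were seen, these letters occurred in 14 of 33 (42.4%) and in 9.54% of all genes. They were found there in 7 of the 20 genes that fell (35.0%) and in 7 of the 13 that did not pass the test (53.8%). CCAAT on either strand occurred within 250 bases upstream in 18 of 33 genes (54.5%) and in 37.5% of all genes. Within 50 bases of the start CCAAT occurred in 15 of 33 (45.5%) and in 15.6% of all genes. It was there in 7 of the 20 that fell (35.0%) and in 8 of the 13 that did not pass the test (61.5%). A match of letters is a description and not a site of binding.

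The 160 bases upstream of the start are shown for the 5 genes that fell and have CHR letters within 250 bases upstream, and for Zw10, a gene with such a match that did not pass the test. Capitals mark TTTGAA or TTTAAA and CCAAT, each on either strand, so that TTCAAA and ATTGG are the reverse complements; in Cenpw the CCAAT and the TTCAAA share a base.
Pmf1 (chr3:88410398-88410557, minus strand): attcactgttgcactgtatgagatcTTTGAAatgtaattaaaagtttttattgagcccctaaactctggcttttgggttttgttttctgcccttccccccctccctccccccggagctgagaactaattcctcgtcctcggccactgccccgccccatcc
Cenpw (chr10:30200541-30200700, minus strand): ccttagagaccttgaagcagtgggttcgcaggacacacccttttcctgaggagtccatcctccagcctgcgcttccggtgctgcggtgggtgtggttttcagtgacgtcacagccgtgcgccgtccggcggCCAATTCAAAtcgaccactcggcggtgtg
Cenpn (chr8:116921580-116921739, plus strand): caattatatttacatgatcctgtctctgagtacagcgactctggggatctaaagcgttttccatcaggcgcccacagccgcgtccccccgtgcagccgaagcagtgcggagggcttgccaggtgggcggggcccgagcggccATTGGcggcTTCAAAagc
Ska3 (chr14:57826164-57826323, minus strand): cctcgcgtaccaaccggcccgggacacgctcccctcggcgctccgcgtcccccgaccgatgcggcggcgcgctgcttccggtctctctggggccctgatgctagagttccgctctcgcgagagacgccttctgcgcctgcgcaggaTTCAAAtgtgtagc
Cenpf (chr1:189688087-189688246, minus strand): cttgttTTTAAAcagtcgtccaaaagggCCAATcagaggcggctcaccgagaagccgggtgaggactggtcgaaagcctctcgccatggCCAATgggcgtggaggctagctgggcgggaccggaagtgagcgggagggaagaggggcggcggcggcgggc
Zw10 (chr9:49055421-49055580, plus strand): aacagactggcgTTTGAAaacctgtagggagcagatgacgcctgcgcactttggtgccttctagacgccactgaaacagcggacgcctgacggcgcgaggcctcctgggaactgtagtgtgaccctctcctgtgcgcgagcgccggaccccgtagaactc
In Cenpw and Cenpn a CCAAT box lies next to the CHR letters, which begin 25 and 9 bases before the start. In Ska3 the letters begin 14 bases before the start with no CCAAT in the printed stretch, and in Pmf1, Cenpf and Zw10 they begin 135 to 154 bases before it. Cenpf also has TTTGAA at positions 3 to 8 after the start, outside the printed stretch.

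**Figure D4:**
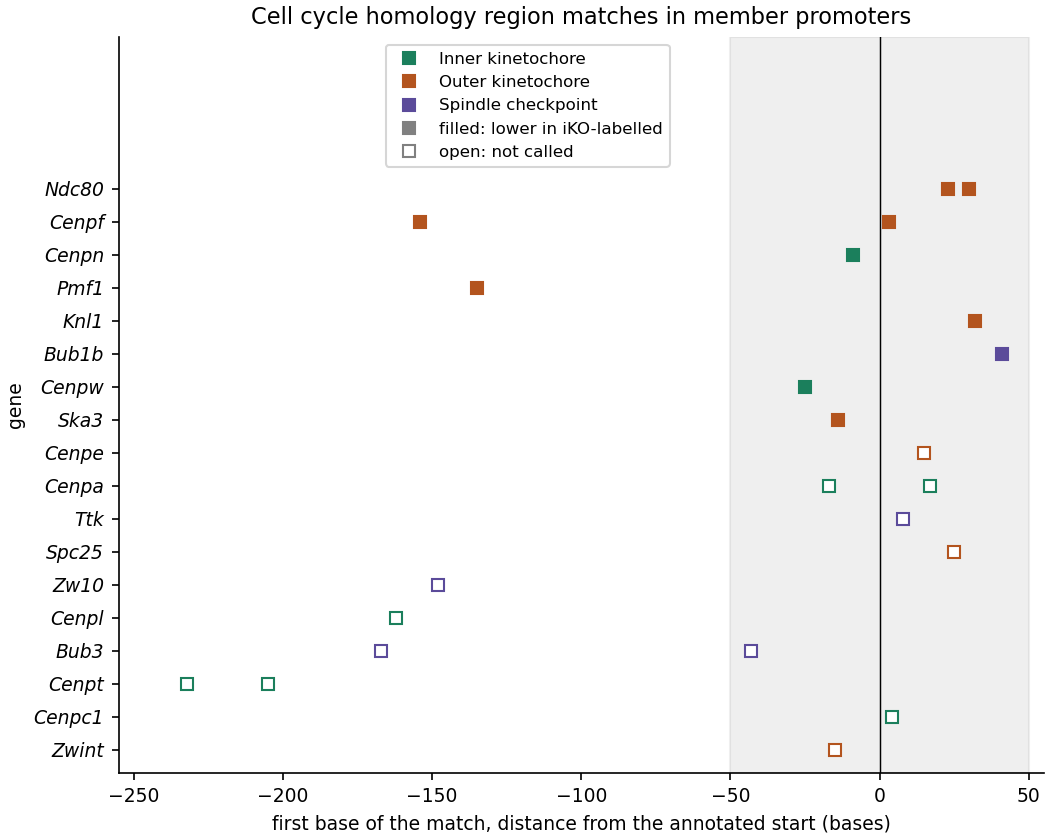
Distance from the annotated start to the first base of each CHR match (TTTGAA or TTTAAA, either strand) in the promoters of the genes that have one, coloured by role, filled for genes that fell and open for genes not past the test; the grey band is 50 bases on each side of the start. Matches in the band belong to 7 genes that fell and 7 that did not pass the test; Bub3 has a pair of annotated starts, so its match appears at both distances.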

How the data were processed

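The authors deposited raw counts per gene and library (3 iKO-labelled, 3 control, grouped by title) and FPKM for the same 46078 rows. Per the submitters' processing notes, DESeq2, STAR, Trim Galore and featureCounts (Subread) were used with mm10, with no version or order given; cDNA was made by Smart-Seq2, per the labels' protocols, which does not mark strand. The deposited FPKM are scaled by median-of-ratios size factors (matched to 9.3e-15). The 551 unnamed rows (0.108% to 0.123% of counts) were left out.

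Counts were tested in R 4.3.3 with edgeR 4.0.16: filterByExpr (minimum count 10, total 15), TMM factors, quasi-likelihood fit with group as the only term, Benjamini-Hochberg adjustment over 16252 genes, threshold 0.05. A fold change's SE is its size over the square root of F. Alternatives used limma 3.58.1 and DESeq2 1.42.0. The test was tested on simulated data. The design text speaks of 3 pairs of mice without saying which animal gave which library; p-values reflect only library-to-library spread, which may be partly technical.

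Members, lists and roles were chosen with earlier results of these data known. All 36 genes are named: library values are given for the 4 smallest adjusted p of each role, all genes not called, and the highest and lowest control FPKM, and for other members where they help; of the pathway list, the 4 smallest adjusted p and those not called. Positions and exon overlaps are from GENCODE M21 (GRCm38). The values of 1 gene of the pathway list are not reported here.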

Additional observations from a re-analysis of the deposited data

How the results depend on the processing

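Over 17 alternatives, the falls among the 36 genes numbered 18 to 26 with all libraries kept and 15 to 21 with any single library left out. Of the 23 falls, 13 were called under every alternative that tested them: Cenpi, Cenpm, Cenpw, Ndc80, Nuf2, Spc24, Dsn1, Pmf1, Ska1, Ska2, Bub1, Mad1l1 and Mad2l1. The other 10 were lost under at least 1, and 5 genes not called here (Cenpa, Cenpe, Cenph, Zw10 and Zwint) were called under some. Inner kinetochore falls numbered 4 to 7, outer kinetochore falls 8 to 11 and checkpoint falls 3 to 4 with any library left out. Rises among the 36 genes, and among the outer kinetochore genes, were 1 with library totals and 1 with at least 5 CPM in 3 libraries (Zwint in each), and rises among the other pathway genes were 1 without a count filter. With any single library left out, Cenpo ran from -0.16 (without control 1) to 0.44 and Cenpc1 from -0.055 (without control 3) to 0.41, the only signs that turned among the 36 genes. Over all genes, rises numbered 2076 with DESeq2, and 706 to 1159 with any single library left out. With the replicate number as a block there were 813 rises and 1402 falls over all genes, and 20 falls among the 36 genes; same-numbered libraries' deviations from their group means correlated at -0.087, -0.0077 and -0.062, so the numbers were not taken as a pairing. Library totals gave 1921 rises and 1440 falls, with a median log2 fold change over all genes of 0.16, against 0.02 with TMM factors. The size of folds of genes near 0 counts depends on the pseudocount. Over the alternatives Ska1 ran from -10.42 to -1.69, Bub1 from -9.09 to -2.53 and Ndc80 from -8.46 to -2.76. The values of these genes are therefore not a measure of how much RNA is left.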
